A study of Drosophila melanogaster with 4 samples.

Results

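H3K27me3, trimethylation of lysine 27 of histone H3, was followed along 2L, the left arm of chromosome 2 of Drosophila melanogaster. The members are all rows with the sequence name 2L in 3 deposited lists of enriched regions. They number 241 of 1486 regions in ChIP replicate 1, 243 of 1459 in ChIP replicate 2 and 368 of 2279 in a list for the series as a whole, called the series list here. Whole embryos of the wild type strain Oregon-R (Oregon-R-modENCODE), 14 to 16 h old, were used for all 4 samples, 2 of them ChIP libraries and 2 the inputs that carry the same replicate numbers. No mutant, treatment or other stage is among the samples used here. Each region has 1 score, a positive number set by the submitters on a scale the sources used here do not state, so scores are read only within a list. In chromatin of whole embryos, a mark present in few cells at high density and one present in many cells at low density cannot be told apart.

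H3K27me3 is written by the Polycomb repressive complex PRC2 and is bound by a further Polycomb complex, PRC1. In the fly the mark spreads over long domains around genes for developmental regulators, whose repression in the cells where they are not needed is what Polycomb proteins are best known for. Genes of this kind on 2L include the Wnt ligand gene wg and the Snail family repressor gene sna, named as background only. The gene table at hand is of Release 6 and the header lengths are those of Release 5, so domains are given by position and none is tied to a gene. All coordinates are Release 5, and no sequence of that build was at hand to be shown.

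Most called bases of 2L lay in a minority of long regions. Regions of at least 10 kb, called broad here, numbered 62 in replicate 1 and 63 in replicate 2. They were 25.7% and 25.9% of the regions of the arm and held 82.5% and 82.3% of its called bases. The 14 regions of at least 50 kb in each replicate held 45.5% and 45.2%. Narrow regions were common and held little: those under 2 kb numbered 76 and 80, with 3.86% and 3.93% of the bases. The narrowest region was 1301 bp in replicate 1 and 1302 bp in replicate 2, and the median was 3067 bp and 3479 bp. A region enters a list only past the submitters' threshold, and read depth is unknown, so sequence outside the lists is uncalled and was not shown to lack the mark.

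**Figure D1:**
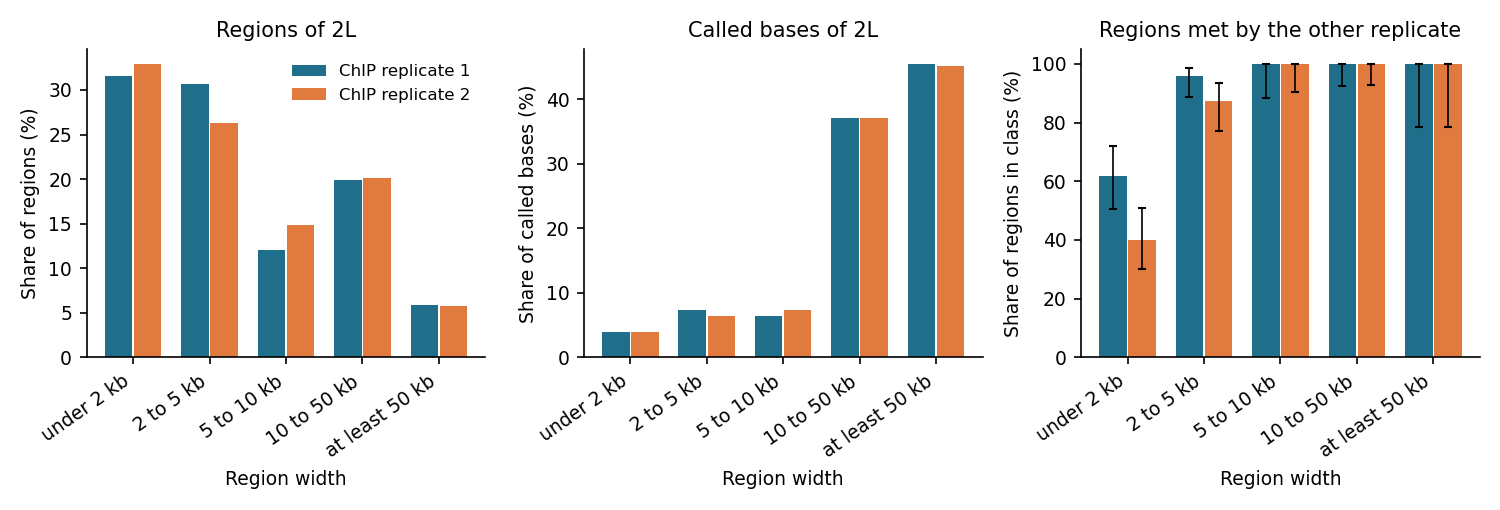
Bars give, for each width class of the 2L regions (x axis), the percent of regions, the percent of called bases and the percent of regions met by the other replicate by at least 1 bp (y axes), in ChIP replicates 1 and 2; error bars are 95% Wilson intervals. Classes of at least 10 kb hold 82.5% and 82.3% of the bases, and overlap is incomplete only in the classes under 5 kb.

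In all, 3.05 Mb of the 23.0 Mb arm were called in replicate 1 and 3.18 Mb in replicate 2. The called share of 2L was 13.3% and 13.8%, or 13.5% ± 0.38 (SD, n = 2). The arm held 21.2% and 21.3% of all bases called in the 2 libraries, with 16.2% and 16.7% of the regions.

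The longest domain lay at 11316994 to 11495123, where both replicates called 178.1 kb without a gap, with a score of 2.00 in replicate 1, 1.99 in replicate 2 and 1.99 in the series list. Its ends differed by 104 bp and 51 bp between the replicates. To its left a 30.4 kb region in replicate 1 and a 30.3 kb region in replicate 2 ended 838 bp and 726 bp away. To its right nothing was called for 512 kb in replicate 1 and 450 kb in replicate 2.

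The next domain covered 150.7 kb from 5366350 to 5517059. Its score was 2.34 in replicate 1, 2.37 in replicate 2 and 2.35 in the series list, and its ends differed by 193 bp and 393 bp. A break of 344 bp in replicate 1 and 165 bp in replicate 2 parted it from a neighbour of 11.6 kb and 11.7 kb, while the right side was uncalled for 62.4 kb and 60.4 kb.

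The domain ranked 3 by length had a broad neighbour. It ran for 143.1 kb from 15303781 to 15446874, with scores of 1.57 and 1.56. The neighbour began 5952 bp further on in replicate 1 and 5969 bp in replicate 2 and measured 45.8 kb in both. Its scores were 1.41 and 1.46. The gap between them had nearly the same length in both libraries. The shared stretch from 12567465 to 12689735 measured 122.3 kb, with scores of 1.98 and 2.03. Beyond its right end, 785 kb in replicate 1 and 540 kb in replicate 2 were free of calls.

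Among the 15 longest stretches called in both replicates, which summed to 1.43 Mb or 48.6% of the shared bases of 2L, the replicates mostly placed the ends alike. The median difference over the 30 ends was 136.5 bp, and 23 of the 30 differed by at most 1000 bp. Larger differences included stretches where a domain cut in replicate 1 was run together in replicate 2. From 21795395 onwards, replicate 1 had regions of 89.4 kb and 22.9 kb with 890 bp between them, while replicate 2 had 1 region of 110.2 kb from 21795395 to 21905576. The right ends thus lay 20682 bp apart, and the scores were 1.15 and 1.27.

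A further region ran from 7259226 to 7331788 in replicate 1 (72.6 kb, score 1.84) and from 7259339 to 7344307 in replicate 2 (85.0 kb, score 1.81). A 10.9 kb region, 1525 bp to the right in replicate 1, was inside the longer region of replicate 2. Another domain was 104.4 kb and 111.3 kb, and the replicate 2 region took in most of a 6.59 kb region that followed after 69 bp in replicate 1. It had scores of 2.00 and 1.99.

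**Figure D2:**
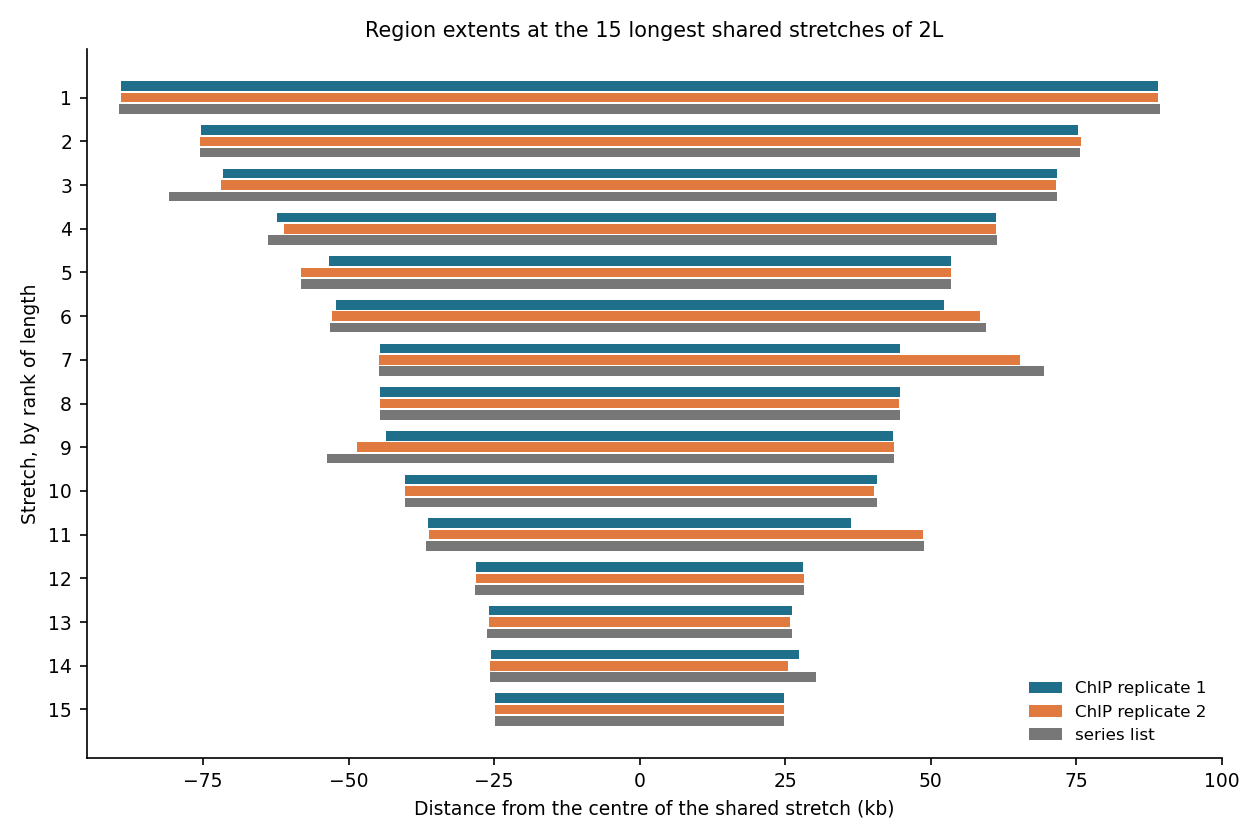
Horizontal bars show the extent of the region called in ChIP replicate 1, ChIP replicate 2 and the series list (colours) at each of the 15 longest shared stretches of 2L, as distance in kb from the centre of the stretch (x axis), ordered by length (y axis). The right end of stretch 7 lies 20682 bp further out in replicate 2 than in replicate 1, while stretch 15 differs by 36 bp and 14 bp at its ends.

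The remaining long stretches differed in how they were bordered. Stretches of 107 kb and 80.5 kb had scores of 1.93 and 1.92 and of 2.40 and 2.39. Those of 87.0 kb and 56.2 kb belonged to 1 chain of 11 regions in each replicate, in which neighbours lay less than 20 kb apart and which was called over 91.3% of 218 kb in replicate 1 and 92.2% of 219 kb in replicate 2. Stretches of 51.8 kb from 6799844 to 6851652 (scores 2.47 and 2.52) and of 51.0 kb from 19189967 to 19241003 (1.22 and 1.25) ranked 13 and 14 by length. In both replicates 9 of the 15 regions had a neighbour within 2 kb and 3 had none within 20 kb on either side.

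Wider regions had higher scores, but the longest domain ranked only 15 by score in replicate 1 and 14 in replicate 2. Over all regions of 2L score and width rose together, with a Spearman coefficient of 0.88 in replicate 1 (241 regions) and 0.89 in replicate 2 (243). Among the 62 and 63 broad regions it was 0.58 and 0.61, among the 41 and 43 of at least 20 kb 0.36 and 0.34, and among the 14 of at least 50 kb 0.10 and 0.12. These are descriptions over regions of 1 library each. The 5 highest scores of the arm belonged to the same 5 domains in all 3 lists, and their widths ran from 26.2 kb to 89.3 kb. The widest of these 5 ranked 8 by length among the shared stretches.

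**Figure D3:**
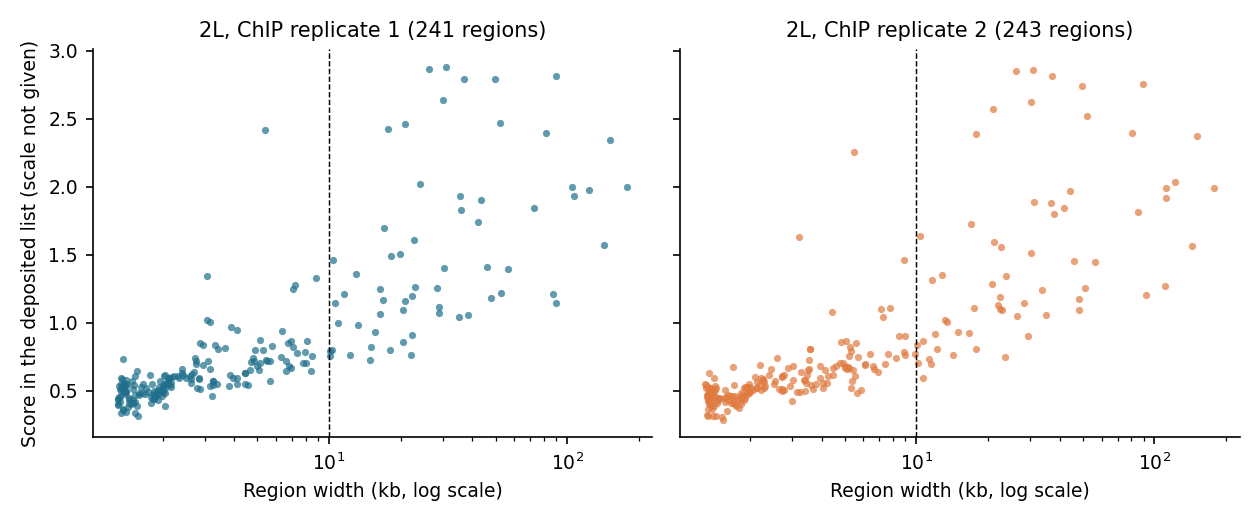
Each point is 1 region of 2L, with its width in kb on a log axis (x) and its score in the deposited list (y), in ChIP replicate 1 (241 regions) and ChIP replicate 2 (243 regions); the dashed line marks 10 kb. Scores rise with width on both sides of the line and spread more widely to its right, and 1 region of 5.38 kb or 5.46 kb stands above 2 in each panel.

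The top score went to a 30.8 kb domain, 1943865 to 1974681 in replicate 1 (2.88) and 1943916 to 1974700 in replicate 2 (2.86). The second, 576840 to 603022 in replicate 1, was 26.2 kb and 26.3 kb wide with scores of 2.87 and 2.85. The order of the other 3 differed between the lists. The domain called from 3530169 to 3619346 in both replicates had scores of 2.81 and 2.76. The domain starting at 3813149 in replicate 1 had 49.7 kb and scores of 2.79 and 2.74. A 37.0 kb domain ran from 9576349 to 9613343 in replicate 1 and scored 2.79 and 2.81.

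The left border of the domain starting at 3530095 and both borders of that starting at 3813149 faced long uncalled stretches. The left edge of the former was at 3530095 and 3530169, and before it 716 kb were free of calls in both replicates. To its right a region of 2.43 kb in replicate 1 and of 2.54 kb in replicate 2 lay only 6154 bp and 6050 bp away. The latter began at 3813149 and 3813113 and ended at 3862864 and 3862850. It had no neighbour within 44.9 kb on the left or 161.9 kb on the right in replicate 2, and within 45.1 kb or 163.1 kb in replicate 1.

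A score of at least 2, a limit set after the scores were seen, was reached by 14 regions of 2L in replicate 1 and 13 in replicate 2, of which 12 overlapped such a region of the other list. The regions that reached the limit were 5.81% and 5.35% of the 2L regions, against 7.07% and 7.61% of all regions of the series. For the 12 that overlapped, no share over all sequences is given, so this overlap does not set 2L apart. Besides the domains above, broad regions past the limit in both replicates were one of 30.2 kb from 6527270 to 6557461 (2.64 and 2.62), one of 17.7 kb from 12076268 to 12093953 (2.42 and 2.39) and one of 20.8 kb from 20767103 to 20787893 (2.46 and 2.57).

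The 1 region under 10 kb with such a score was the outermost one at the left, telomeric tip of the arm. It spanned 5031 to 10412 in replicate 1 (5.38 kb, score 2.41), 5026 to 10483 in replicate 2 (5.46 kb, score 2.25) and 5031 to 10542 in the series list (score 2.30). The median score of the 2L regions under 10 kb was 0.560 in replicate 1 and 0.528 in replicate 2. Whether reads map uniquely there was not tested. At the other, centromere-proximal side the last region ended at 22034832 in replicate 1 and at 22036777 in replicate 2, and the final 975 kb of the arm had no call in either. On the separate scaffold 2LHet, each replicate had 1 region, at 252205 to 253833 (replicate 1) and 252220 to 253772 (replicate 2).

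Along the arm the mark came in clusters with wide uncalled stretches between them. Of 23 windows of 1 Mb, 8 were called over at least 20% and 5 under 5%, as means of both replicates, and the median was 13.5%. The window from 11 to 12 Mb was highest at 25.5% ± 0.17 (SD, n = 2). Next were the window from 14 to 15 Mb at 24.3% ± 0.69 and that from 5 to 6 Mb at 23.5% ± 0.63 (both SD, n = 2). The window from 13 to 14 Mb was lowest at 0.284% ± 0.022 (SD, n = 2). Above it were the window from 22 to 23 Mb at 2.53% ± 0.27 and that from 20 to 21 Mb at 2.57% ± 0.20 (both SD, n = 2). These windows were picked by the mean of the same 2 replicates, so the distance between high and low ones is no separate result. The shares of the replicates differed by at most 2.61 percentage points in any window. Replicate 2 was the higher one in 20 of the 23 windows.

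Windows called over at least 20% were made up of few regions or of many. From 19 to 20 Mb, 30 regions in replicate 1 and 32 in replicate 2 made up 22.8% and 23.9%. From 15 to 16 Mb, 6 and 8 regions made up 21.4% and 21.8%. From 18 to 19 Mb, 7 and 5 regions made up 20.1% and 20.0%. Across the 23 windows the called share had a Spearman coefficient of 0.57 and 0.45 with the number of regions and of 0.77 and 0.85 with the number of broad regions, in replicates 1 and 2, windows of 1 library each. Since broad regions hold most called bases, the higher coefficients are partly built into the measures.

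**Figure D4:**
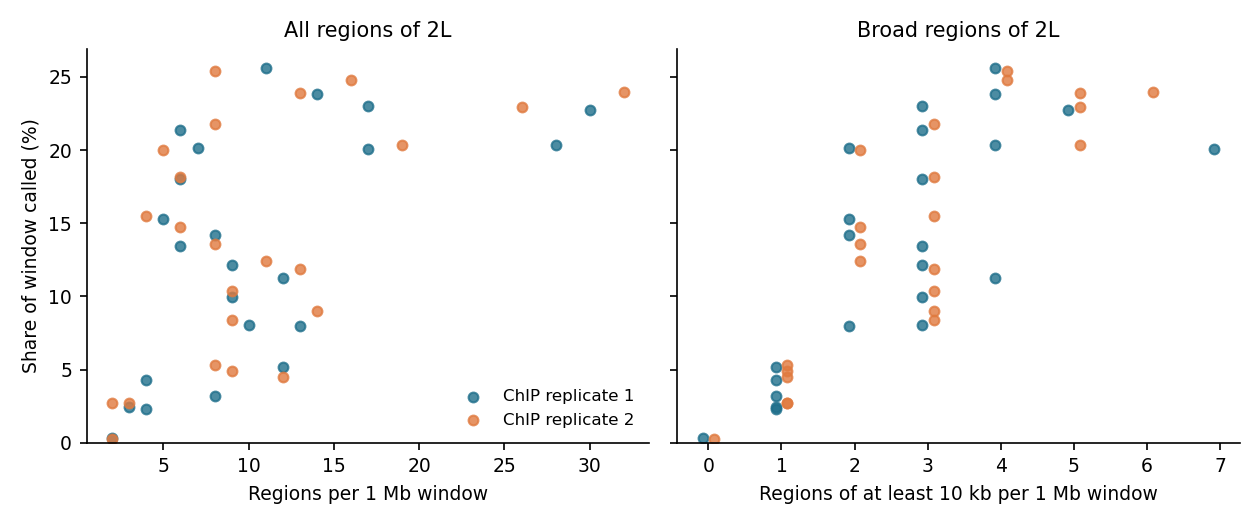
Each point is one of 23 windows of 1 Mb of 2L in ChIP replicate 1 or 2, with the percent of the window called (y axis) against the number of regions in it (left) or of regions of at least 10 kb (right, points set slightly apart by replicate). Windows with 5 regions and with 32 regions both reach at least 20%.

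Called regions less than 20 kb apart formed 75 chains in replicate 1, where 29 had a single member, and 86 in replicate 2, where 38 did. The longest chain by number had 13 regions in replicate 1 (19189967 to 19395703) and 14 in replicate 2 (19189818 to 19373402). It was called over 60.4% and 70.0% of its span, with median scores of 0.513 and 0.545, and its longest member was the stretch ranked 14 above. A chain from 7536618 to 7641432 in replicate 1 held 12 regions, and its counterpart from 7538280 to 7641663 in replicate 2 held 13. No region of that chain was over 18.0 kb or 16.7 kb wide. Its highest score was 0.804 in replicate 1 and 0.924 in replicate 2.

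Stretches of at least 100 kb with no call in either replicate numbered 51 and took up 17.2 Mb, or 74.9% of the arm. The longest lay from 20787903 to 21767275 (979 kb), followed by the 975 kb at the proximal end. Next came 843 kb starting at 7854145 and ending at 8697366. Then followed 716 kb up to the domain that starts at 3530095 in replicate 1, and 695 kb between 701637 and 1396217. The series list had 3, 2, 1, 7 and 4 regions inside these 5 stretches. They summed to at most 9.41 kb per stretch.

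Both replicates called nearly the same sequence on 2L. Bases called in both came to 2.95 Mb and bases called in either to 3.28 Mb, a shared fraction of 90.0%. Replicate 2 contained 96.6% of the bases of replicate 1, and replicate 1 contained 92.9% of those of replicate 2. High shares were not particular to 2L. On the other large arms the former ran from 91.4% (2R) to 94.8% (3R) and the latter from 89.3% (3L) to 92.3% (3R). By number of regions, 209 of 241 in replicate 1 met replicate 2, which is 86.7% (Wilson interval 81.9 to 90.4), against 81.3% over all sequences. In replicate 2 it was 187 of 243, or 77.0% (71.3 to 81.8), against 75.5% over all sequences. The intervals cover counting error only. The share over all sequences, which includes 2L, lay just below the interval in replicate 1 and inside it in replicate 2.

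Whether a region of 2L was found again went with its width. No share by width over all sequences is given beside these counts, so they do not set 2L apart. A wide region also meets the rule of 1 bp more easily than a narrow one. All 91 regions of at least 5 kb in replicate 1 and all 99 in replicate 2 met the other list. Under 2 kb it was 47 of 76 in replicate 1, or 61.8% (50.6 to 71.9), and 32 of 80 in replicate 2, or 40.0% (30.0 to 51.0). The 32 regions of replicate 1 and 56 of replicate 2 with no counterpart held 1.61% and 2.95% of the called bases, at median scores of 0.510 and 0.469. The widest in replicate 1 were 2.62 kb (11028720 to 11031343), 2.16 kb (19945440 to 19947601), 2.01 kb (11184250 to 11186259), 1.83 kb (8700474 to 8702301) and 1.81 kb (3638520 to 3640325). In replicate 2 they were 3.43 kb (17311392 to 17314822), 3.42 kb (14301782 to 14305197), 3.26 kb (1484734 to 1487990), 2.54 kb (4034406 to 4036945) and 2.28 kb (7123862 to 7126144). Each of these 10 overlapped a region of the series list, and their scores ran from 0.438 to 0.586.

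Where 1 region matched 1 region, the borders were close. On 2L there were 117 such pairs, of which 35 were broad in both replicates, out of 62 and 63 broad regions. Pairs of this kind leave out domains that were cut in one replicate and run together in the other. One left out is the stretch ranked 7 by length, with right ends 20682 bp apart. The 70 ends of the broad pairs differed by a median of 85.5 bp, and 71.4% of them by at most 200 bp. The largest difference was 3409 bp, at a pair of 10.6 kb and 13.5 kb. Scores of the broad pairs had a Spearman coefficient of 0.99. For the 16 pairs under 2 kb in both lists it was 0.49, and that for widths was 0.17. Such narrow regions span little range in either measure.

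Broad regions of replicate 2 were more often matched by several regions of replicate 1 than the reverse. Among the 62 broad regions of replicate 1, 8 (12.9%) touched at least 2 regions of replicate 2. The count for replicate 2 was 24 among 63 (38.1%). Over all sequences these shares were 13.0% of 300 and 31.8% of 311. Breaks under 2 kb between regions of at least 5 kb numbered 22 in each replicate on 2L, at a median of 817.5 bp in replicate 1 and 593 bp in replicate 2. In each list 8 breaks had a counterpart in the other. A single region of the other list spanned 11 further breaks of replicate 1 and 5 of replicate 2. These break counts are for 2L alone, with no share over all sequences beside them, so they do not set the arm apart.

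Among the 8 recurrent breaks, the one left of the 150.7 kb domain spanned 5366006 to 5366349 (replicate 1) and 5365992 to 5366156 (replicate 2). In the chain of 11 regions, a break of 1758 bp from 14466241 in replicate 1 and of 1756 bp from 14466283 in replicate 2 recurred almost base for base. Another spanned 11231378 to 11232659 (replicate 1) and 11231404 to 11232581 (replicate 2). These 3 were also breaks of the series list, though not always at the same size. At the last of them the series regions ended at 11231912 and began again at 11231937. At the first they ended at 5366031 and began again at 5366120. The recurrent breaks that start at 6209187, 16403574 and 17741634 in replicate 1 were not breaks of the series list. Mappability was not examined, so its part in the breaks was not tested.

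The series list, taken here as not independent of the replicates, held the same long domains and many more short regions. Its 368 regions of 2L covered 3.60 Mb, and 81.9% of these bases were called in both replicates. All 66 of its broad regions on 2L overlapped both, a count given without the share over all sequences. In all 144 regions overlapped both replicates, or 39.1% (34.3 to 44.2), against 37.0% over all sequences, and 154 overlapped neither, or 41.8% (36.9 to 46.9), against 40.7%. The 154 held 5.96% of the bases at a median width of 1278.5 bp, and 79 of them were narrower than any replicate region of the arm. On 2L the series list went down to 1001 bp, against 1301 bp in replicate 1 and 1302 bp in replicate 2. The other 27 and 43 met replicate 1 or replicate 2 alone, or 7.34% and 11.7%, against 9.92% and 12.4% over all sequences.

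Of the 154, the widest measured 3.54 kb (19898219 to 19901755), 2.97 kb (4120181 to 4123153) and 2.64 kb (16784267 to 16786910), with scores of 0.323, 0.301 and 0.305. The highest scores were 1.69 (21653333 to 21654464, 1.13 kb), 1.48 (21562394 to 21563396, 1.00 kb) and 0.681 (22404522 to 22405527, 1.01 kb). All 3 lie in the 2 proximal stretches where neither replicate had a call. The list also joined pieces: 44 of its regions on 2L met 2 or more regions of replicate 1 and 36 met 2 or more of replicate 2. No share over all sequences is given for this joining, so it is not shown to be particular to 2L. The most joined one, 99.8 kb from 6165386 to 6265144, met 6 regions of replicate 1 and 8 of replicate 2, of which the longest were 38.2 kb and 48.0 kb. Almost every replicate base was kept, 99.8% of replicate 1 and 99.7% of replicate 2.

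Set beside the other large arms, 2L had the highest share of its called bases in broad regions, and in the replicates X alone had fewer regions per Mb. Broad regions held 82.4% ± 0.14 (SD, n = 2) of its called bases, against 79.9% ± 1.2 (SD, n = 2) on X, 78.8% ± 0.14 (SD, n = 2) on 3R, 71.3% ± 0.55 (SD, n = 2) on 3L and 69.1% ± 2.3 (SD, n = 2) on 2R. In each replicate the value of 2L was above that of every other large arm. Its called share, 13.5%, lay within 1 SD of that of 3L, 13.3% ± 0.50 (SD, n = 2), at 10.5 regions per Mb against 15.3 on 3L and 9.08 on X. Both replicates had the same sign in these differences. By number per Mb, broad regions were not densest on 2L. Their mean was 2.72 on 2L, against 2.89 on 3L, 2.74 on 3R, 2.29 on 2R and 1.69 on X. Between 2L and 3R the replicates differed in sign for this measure. In the series list 2L had 16.0 regions per Mb against 16.1 on X, and its called share of 15.6% was below the 16.5% of 3L. The differences between arms were not tested, since with 2 libraries the smallest 2-sided exact sign-flip p is 0.5.

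The median score of the broad regions of 2L was the lowest of the 5 large arms in both replicates, though not in the series list. It was 1.31 in replicate 1 and 1.32 in replicate 2, against 0.619 and 0.602 for all regions of these lists. On 3L it was 1.35 in both, on 2R 1.49 and 1.38, on 3R 1.84 in both, and on X 2.07 in both. In the series list 2L stood at 1.21 and 3L at 1.10. Within the arm, the stretch left of its midpoint held 36 of the broad regions in each replicate, with median widths of 21.6 kb and 23.2 kb. The stretch right of it held 26 and 27, with median widths of 32.0 kb and 33.6 kb. Median scores on both sides lay close together, at 1.23 and 1.30 on the left and at 1.38 and 1.35 on the right.

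**Figure D5:**
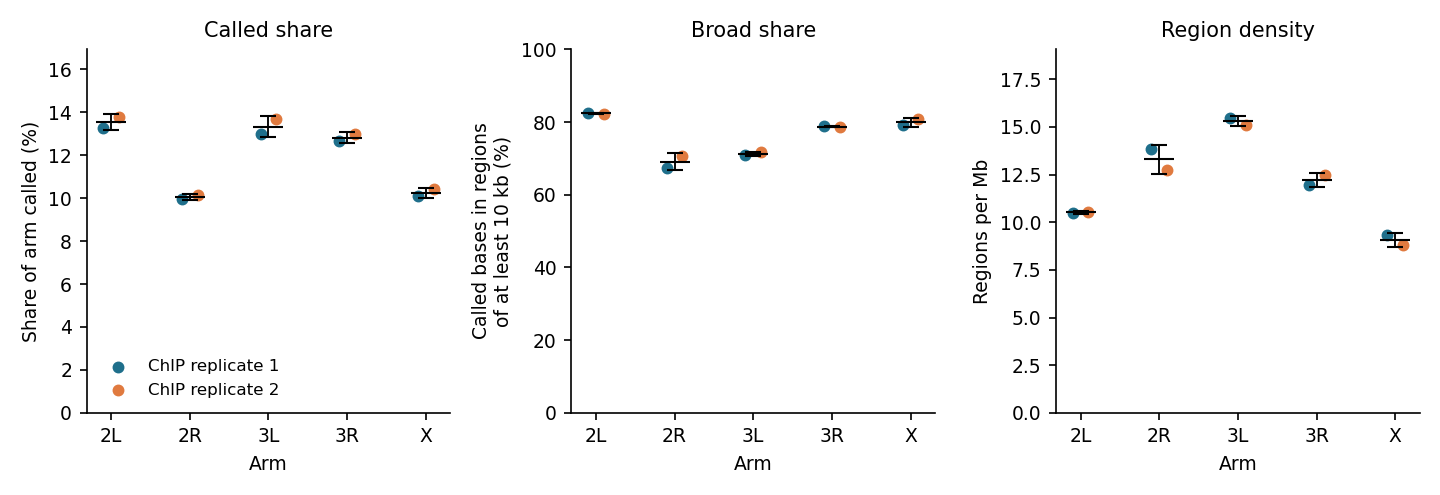
Points are the values of ChIP replicates 1 and 2 for each of the 5 large arms (x axis): percent of the arm called, percent of called bases in regions of at least 10 kb, and regions per Mb (y axes); bars are the mean with 1 SD of the 2 replicates. On 2L the broad share is 82.4%, above the other arms in both replicates, at a region density of 10.5 per Mb.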

How the data were processed

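The authors deposited 3 lists of enriched regions in GFF3 form, 1 per ChIP replicate and 1 for the series, each with a score per region in the deposited files; GFF3 positions count from 1. Bowtie 0.12.7 is named in the submitters' processing notes; the region caller, the threshold, the scale of the score and the way the series list was made are not stated in the sources used. No list of an input sample was used. Depth is unknown, so no interval that needs it is given. Release 5 is inferred from the header lengths (2L, 23011544 bp).

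Regions were compared by overlap of at least 1 bp, and shares carry 95% Wilson intervals. Fixed rules named the 15 longest shared stretches, the 5 highest scores, the 5 widest regions of 1 replicate alone, the 5 longest uncalled stretches, 3 windows at either extreme and 3 series regions by width and by score; other regions were chosen after their values were seen. Members, rules and width classes were chosen with earlier results of these data known. Replicates are separate by label only. The files used hold no read counts, so nothing was tested across features. Code was tested on simulated data (60 of 60 list pairs equal to base-by-base arithmetic), in Python 3.11.15 with numpy 2.4.6, pandas 2.3.3, scipy 1.17.1 and matplotlib 3.10.9.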

Additional observations from a re-analysis of the deposited data

How the results depend on the processing

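Apart from leaving out a replicate, 21 of 38 alternative values stayed within the spread of the replicates or, for counts, within 1.5 times. For end differences the spread is that between the medians of starts and ends. For regions met and bases shared it is that between the 2 directions of 1 comparison, which is not a spread between replicates. With an SD of 6.9 for regions met, 88.4% for regions of at least 2 kb counted as unchanged beside 81.8%. Keeping the regions whose score reached the median of their list gave a called share of 2L of 12.4%, a densest window of 24.9%, 90.6% of regions met by the other replicate, a median end difference of broad pairs of 115.5 bp and 57 series regions in neither replicate. With regions of at least 2 kb the called share was 13.0% and the series regions in neither 45. Merging regions under 1 kb apart left a mean of 10 short breaks, 4 of them shared, and a break limit of 1 kb left 14 and 3. Requiring 50% of the shorter region raised the end difference to 127 bp, and 50% of both regions gave 158 bp and 60.3% of regions met. A broad limit of 5 kb gave a mean of 95 broad regions, and the densest window of 500 kb was called over 50.9%. Up to the last region, a length chosen after the data were seen, the called share was 14.1%. With 1 replicate alone the called share was 13.3% or 13.8%, the densest window 25.4% or 25.6%, the broad regions 62 or 63, the short breaks 22 in either and the series regions outside that replicate 181 or 197; with 2 replicates the first 2 cannot leave the spread, so they say nothing of stability. No paired analysis was possible because no test was run and ChIP lists alone were used. The planned assignment of genes was not run, since the annotation is of another build. What depth limits is unknown.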
